A study of Drosophila melanogaster with 24 samples.

Results

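Of the 3687 Su(Hw) peaks that Kc167 cells had on arms X, 2L, 2R, 3L and 3R and on chromosome 4, 817 (22.2%) shared no base with any peak of CP190 or Mod(mdg4), and these are called solitary Su(Hw) sites here. The name refers to those partners alone, since 52.9% of these sites had another Su(Hw) peak less than 10 kb away. The other 2870 peaks are called partnered. Of these, 1563 shared at least 1 base with a CP190 peak alone, 1239 with peaks of both partners and 68 with a Mod(mdg4) peak alone. Kc167 is an established Drosophila melanogaster cell line that came from embryos and grows as a monolayer. Binding was measured by chromatin immunoprecipitation and sequencing (ChIP-seq). Cells transfected with 5 ug of double-stranded RNA (dsRNA) against Clamp and kept for 6 days gave 2 libraries with the second CLAMP antibody and 2 inputs. Mock cells gave 2 libraries each with antibodies to Su(Hw), CP190, Mod(mdg4)2.2 and CLAMP (antibody clamp, called the first here, and clamp-abcam, called the second), and 10 inputs. The deposited data are 1 list of peaks per antibody and treatment, each called on its libraries together. No value below therefore has a replicate error, and no test between samples could be made. Shares are given with 95% Wilson intervals and differences of shares with 95% Newcombe intervals; both cover counting error over peaks alone, and neighbouring peaks are not independent.

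Su(Hw) is a zinc-finger protein that binds DNA by its own sequence preference. At the insulator of the gypsy retrotransposon it works with CP190 and with the 2.2 isoform of Mod(mdg4), both proteins of the BTB domain family, and the complex keeps enhancers from acting across it. Su(Hw) is also needed for female fertility, and in the ovary it is known for keeping genes of nerve cells silent. A Su(Hw) site without partner peaks is a place where, at the threshold of these lists, the DNA-binding subunit was called and its usual partners were not.

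At the median, the solitary sites were weaker and narrower than partnered peaks as a whole, with a long tail of strong ones. The fold enrichment deposited for each peak, which is the authors' ratio of ChIP signal to background at its summit, ran from 2.13 to 25.3 in the solitary sites with a median of 4.54 (quartiles 3.37 and 6.75). The median was 8.18 (quartiles 5.11 and 12) in partnered peaks. Among those it was 6.49 (quartiles 4.37 and 9.59) with CP190 alone, 11 (quartiles 7.72 and 14.7) with both partners and 2.78 (quartiles 2.50 and 3.21) with Mod(mdg4) alone. The −log10 q of the peaks had a median of 13.2 in solitary sites and 41.5 in partnered peaks. Solitary peaks were 391 bases wide at the median (quartiles 307 and 510.0), against 522 bases in partnered peaks (quartiles 416 and 653). Among partnered peaks the median width was 479 bases with CP190 alone, 582 with both partners and 336 with Mod(mdg4) alone. Width also enters the rule, since a wide peak is easier to overlap. The classes were made from the same list of peaks, so these values describe them and are not tested.

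**Figure D1:**
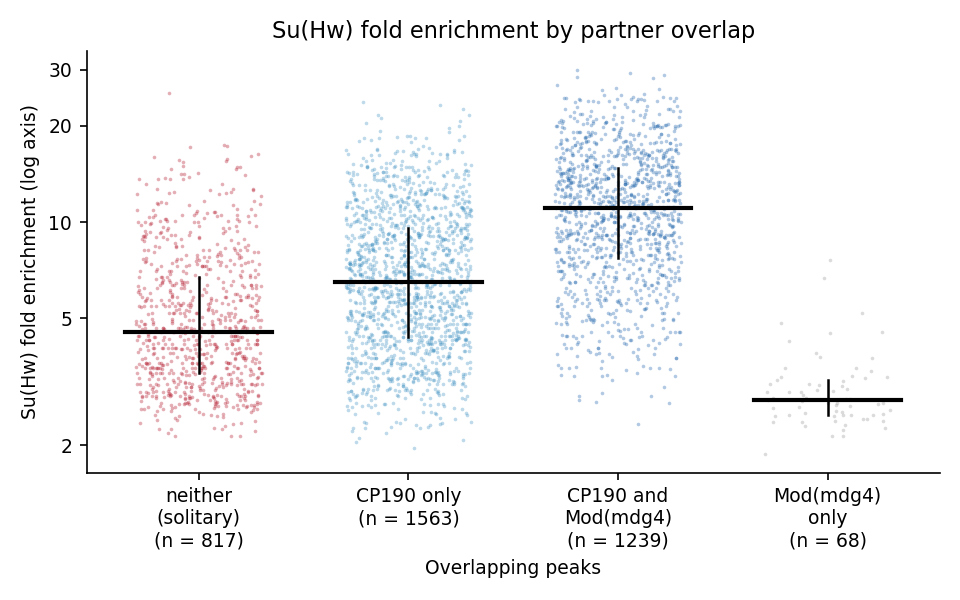
Deposited fold enrichment of Su(Hw) peaks on a log axis, by overlap with CP190 and Mod(mdg4), with the solitary sites first; points are peaks, horizontal lines medians and vertical lines quartiles. The solitary sites have a median of 4.54 and reach 25.3, so their range lies within that of the partnered peaks, whose medians are 6.49 with CP190 alone, 11 with both and 2.78 with Mod(mdg4) alone.

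Solitary sites became rarer with strength. The Su(Hw) peaks were ranked by fold and cut into 10 bins of nearly equal size. In the weakest bin (fold 1.89 to 3.23) 47.7% were solitary, and in the strongest bin (15 to 29.9) 11 of 369 were, or 2.98% (interval 1.67 to 5.26). The share fell from each bin to the next stronger one. In numbers, 348 solitary sites had a fold over 5, 77 a fold over 10 and 11 a fold over 15. Much of the width gap went with strength. Solitary peaks were on average 127 bases narrower than partnered peaks over the whole list and 26.8 bases narrower on average within strength classes, which are 5 equal parts of the list ranked by fold. In the strongest class, the median width was 631.0 bases in solitary sites and 662.0 bases in partnered peaks. Solitary peaks were not narrower at every strength. In the middle one of the 5 classes their median width was above that of partnered peaks. The same held in several of the 10 bins, among them the strongest, which had 11 solitary sites.

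**Figure D2:**
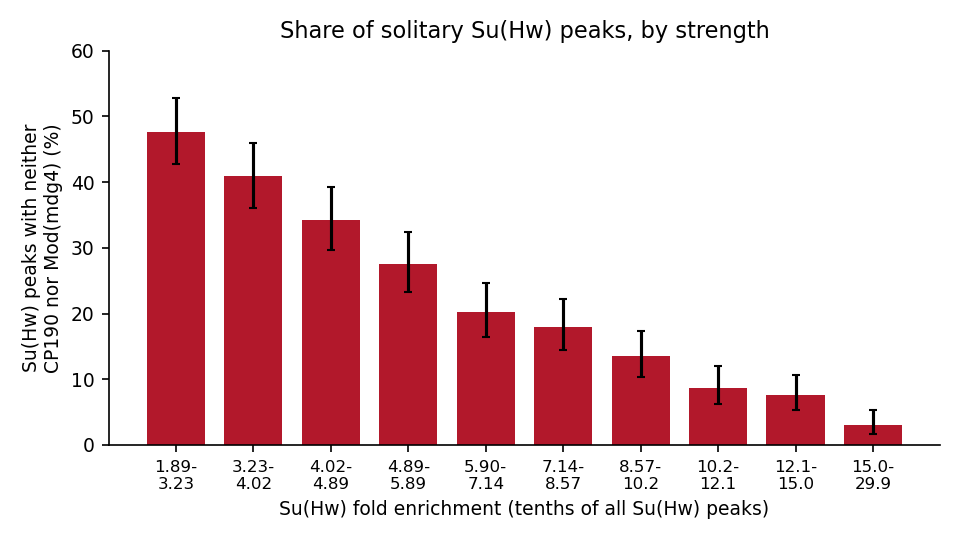
Share of Su(Hw) peaks that are solitary, in percent, in 10 bins of the deposited Su(Hw) fold enrichment from weak to strong, with 95% Wilson intervals. The share is 47.7% in the weakest bin and 2.98% in the strongest.

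Most solitary sites lay kilobases from the nearest partner peak. The gap had a median of 7.61 kb (quartiles 3.36 and 15.4 kb) and reached 116 kb. CP190 was the nearer partner at 785 sites and Mod(mdg4) at 32. On these arms the CP190 list held 9435 peaks and the Mod(mdg4) list 1732. How much of this count comes from the sizes of the lists was not tested. The gap was at most 500 bases at 42 sites (5.14%), at most 1000 bases at 70 (8.57%) and over 20 kb at 142 (17.4%). It was longer at stronger sites, with a median of 5.97 kb in the weakest strength class and 15.5 kb in the strongest. The edge of the rule ran through close neighbours. Just inside it, a peak of 2.30-fold in Myo81F (chr3R:836425-836682) had a Mod(mdg4) peak 1 base away. A peak of 8.44-fold near numb, the gene of an inhibitor of Notch signalling (chr2L:9465297-9465866), had a CP190 peak 46 bases away. In Lerp, which encodes a lysosomal sorting receptor, the gap to CP190 was 35 bases, and in robo3, the gene of a receptor for the axon repellent Slit, it was 69 bases. Just outside the rule, a peak of 2.55-fold in tei shared 14 bases with a CP190 peak, and 3 peaks in Myo81F shared 25, 55 and 64 bases with Mod(mdg4) peaks. Partnered peaks that shared 100 bases or fewer numbered 8.

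The strongest solitary site was at chr2L:14888788-14889501, 3628 bases from an end of lncRNA:CR45302, a long non-coding RNA gene. Its fold of 25.3 stood well above the next, 17.4 near CG34170 (chr2L:17308016-17308812). Its nearest CP190 peak was 36504 bases away and its nearest Mod(mdg4) peak 182150 bases. A site of 17.3-fold lay in CadN2, a gene of the classical cadherins that hold neurons together (chr2L:17808776-17809468), and one of 17.1-fold in CG4168. The strongest site of the X was 16.4-fold (chrX:13438356-13439353), near Neto, whose product helps glutamate receptors gather at the fly neuromuscular junction. The strongest of 3R was 16.1-fold near lncRNA:CR44260 (chr3R:7718188-7718853). The strongest of 2R was 15.5-fold in tn, a gene of a tripartite-motif protein that muscle needs (chr2R:19003744-19004385). The strongest of 3L was 14.1-fold in Rbp6, which encodes an RNA-binding protein of the Musashi type (chr3L:17082386-17083017). The remaining 5 of the 12 strongest had folds of 15 to 15.9. They lay near CG33669, near lncRNA:CR45578, in CG42340, near CG7094, and in su(w[a]) and CG11638. The CP190 gap in these 12 sites ran from 2793 bases, near CG33669, to 60425 bases, near lncRNA:CR44260. At the other end, the 3 weakest sites had folds of 2.13 in CG17321, 2.14 in CG18675 and tipE, and 2.15 near CG4629. The widest solitary peak spanned 1312 bases in mura at 4.96-fold (chr3R:9539086-9540397).

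Solitary sites lay less often near the ends of genes, and more often inside long genes, than partnered peaks as a whole. The summit was within 500 bases of an end of a gene at 61 solitary sites, or 7.47% (interval 5.86 to 9.47), against 21.1% of partnered peaks and 18.1% of all Su(Hw) peaks. The difference was −13.6 percentage points (interval −15.8 to −11.1). Peaks with CP190 alone had 14.5%, which solitary sites undercut by 6.99 points (difference −6.99, interval −9.43 to −4.39), and peaks with both partners had 30.4%. The share was lower still, at 2.94% (2 of 68), in peaks with Mod(mdg4) alone. The median distance to a gene end was 5.61 kb in solitary sites, 3.48 kb with CP190 alone and 1.34 kb with both partners. The share within 500 bases was lower in solitary sites than in partnered peaks in each of the 5 strength classes, from 9.79% against 19.5% in the weakest to 2.56% (1 of 39) against 20.7% in the strongest. On these arms 56.5% of the 9435 CP190 summits lay within 500 bases of a gene end. A class defined by the lack of CP190 leaves those places out, and how much of the difference this makes was not tested.

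**Figure D3:**
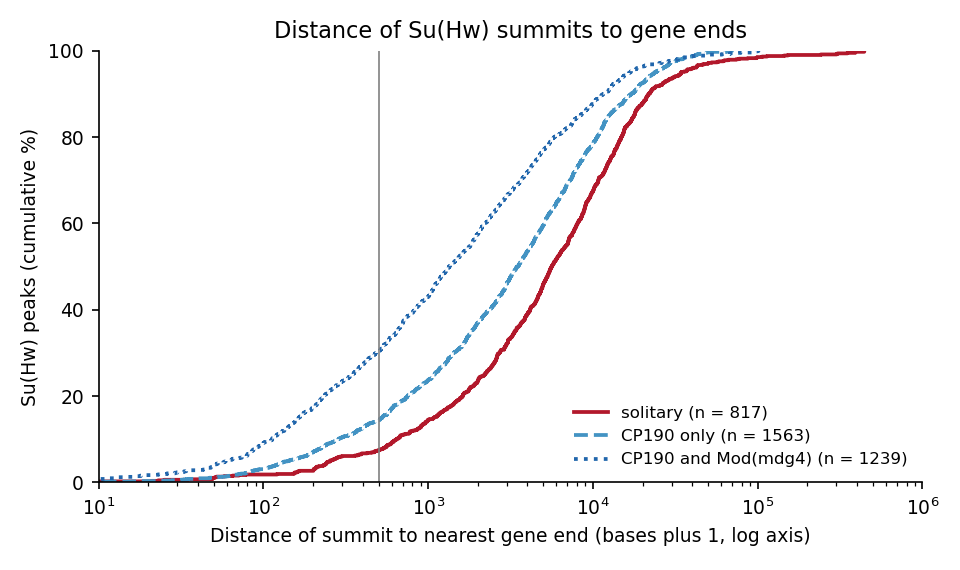
Cumulative share of Su(Hw) summits, in percent, by distance to the nearest end of any gene on a log axis, for solitary sites and for partnered peaks with CP190 alone and with both partners. At the grey line, 500 bases, the curves stand at 7.47%, 14.5% and 30.4%.

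Seen from the other side, the share of Su(Hw) peaks that were solitary was 9.16% within 500 bases of a gene end, 16.0% from there to 2 kb, 25.8% between 2 and 10 kb, and 32.8% beyond 10 kb. Of the solitary sites, 32.7% lay over 10 kb from a gene end, against 19.1% of partnered peaks and 22.1% of all. Among partnered peaks the share was 21.6% with CP190 alone, 12.3% with both partners and 82.4% with Mod(mdg4) alone. In the weakest strength class it was 33.3% (interval 28.4 to 38.6) in solitary sites and 30.2% (interval 25.9 to 34.8) in partnered peaks. In the strongest class it was 25.6% and 14.0%. The summit was inside a gene at 579 solitary sites, or 70.9% (interval 67.7 to 73.9), against 61.4% of partnered peaks and 63.5% of all. That difference was 9.44 points (interval 5.78 to 12.9), and it was 4.46 points against peaks with CP190 alone (interval 0.512 to 8.30). Counting protein-coding genes alone, the summit was inside one at 68.9% of solitary sites, 59.5% of partnered peaks and 61.6% of all. It did not hold at all strengths: 68.8% of solitary sites and 69.6% of partnered peaks were inside a gene in the weakest strength class, and 53.8% and 57.1% in the strongest. Genes of 50 kb or more held 37.1% of the solitary sites (303), 26.5% of partnered peaks and 28.8% of all. Among partnered peaks they held 30.3% of those with CP190 alone, 19.5% with both partners and 67.6% with Mod(mdg4) alone. Within protein-coding genes under 10 kb long 11.8% of the Su(Hw) summits were solitary (33 of 280), and in genes of 100 kb or more 28.7% were. The 100 kb around a solitary site held a median of 11 genes, against 14 around partnered peaks, and 6 CP190 peaks against 8, leaving out any CP190 peak that overlapped the site itself.

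The exceptions at gene ends included sites of good strength. The strongest was 13.2-fold, 240 bases from an end of nSyb, which encodes the SNARE protein of synaptic vesicles (chr3L:1629734-1630324). Its nearest CP190 peak was 1092 bases away. A site of 11.4-fold lay 211 bases from Grl65a. One of 10.5-fold lay in beat-Vb, a gene of immunoglobulin-domain proteins of the Beat family, and 64 bases from an end of lncRNA:CR44236. Further sites were found at lncRNA:CR44256 (9.22-fold), at CG18599 (8.88-fold), beside the odorant receptor gene Or85b (8.79-fold) and at CG11317 (8.59-fold). The next, of 8.49-fold, lay in pros, the gene of a homeodomain factor of neural precursors, near an end of lncRNA:CR46008. The last 2 of the 10 strongest lay beside lncRNA:CR46496 (7.61-fold) and in Dus1 and CG17075 near lncRNA:CR44219 (7.06-fold). Of the 238 solitary sites outside genes, 59 had a long non-coding RNA gene as the nearest gene, or 24.8% (interval 19.7 to 30.6). The share was 17.4% (interval 15.3 to 19.8) for partnered peaks and 20.6% (interval 17.3 to 24.2) for those with CP190 alone.

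At least 1 solitary summit lay in 410 of the 17684 genes (2.32%), and some Su(Hw) summit lay in 1216 (6.88%). Of the 410, 387 were protein-coding, and of the 1216, 1121 were. These host genes were long, with a median of 38.3 kb against 17.6 kb for protein-coding genes with partnered summits alone and 2.16 kb for all protein-coding genes. A gene with many Su(Hw) summits needs just 1 solitary one to count as a host. How much of the gap in length this makes was not tested. Counted per summit inside a gene, the longest gene around it had a median of 53.4 kb for solitary sites. It was 41.9 kb for partnered peaks and 45.1 kb for those with CP190 alone. A single solitary site was found in 297 genes and 3 or more in 48. Since a longer gene has more room for sites, the counts below are given with each gene's length.

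The 10 genes with most solitary summits, ties broken by the highest fold, lay on X, 2L, 2R, 3L and 3R. Of these rg and CG15465, which the annotation gives the same bounds on X (169 kb), held 9 solitary of 11 Su(Hw) summits, with folds from 2.65 to 14.1; rg encodes an anchoring protein for protein kinase A. Pde9, the gene of a cyclic nucleotide phosphodiesterase (112 kb), held 7 of 8, from 3.19- to 10.2-fold. In sm, which encodes an RNA-binding protein of the hnRNP L type (114 kb), 7 of 9 were solitary, from 3.41- to 9.73-fold. Genes of receptor protein tyrosine phosphatases that guide axons came next: Lar (145 kb) held 6 of 9, up to 11-fold, and Ptp99A (109 kb) held 6 of 8, up to 8.95-fold. Tet, named for the TET family of dioxygenases (93.0 kb), held 6 of 10, up to 9.41-fold. CG42340 (101 kb) held 5 of 5, with folds of 13.6, 15.6, 12.1, 5.59 and 5.71; CG46320, sif and dnc also held 5 solitary summits, of 8, 8 and 11, but with lower folds. Another 2 of these genes differed in that most of their sites were partnered. The gene bru3, of the Bruno family of RNA-binding proteins (281 kb), held 7 solitary of 34 summits. Myo81F, a myosin gene that spans 1966 kb next to the centromere of 3R, held 9 of 57, none above 3.01-fold. Of the 113 genes with at least 2 solitary summits, 22 held no partnered one. The matching count for partnered summits is not given here.

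**Figure D4:**
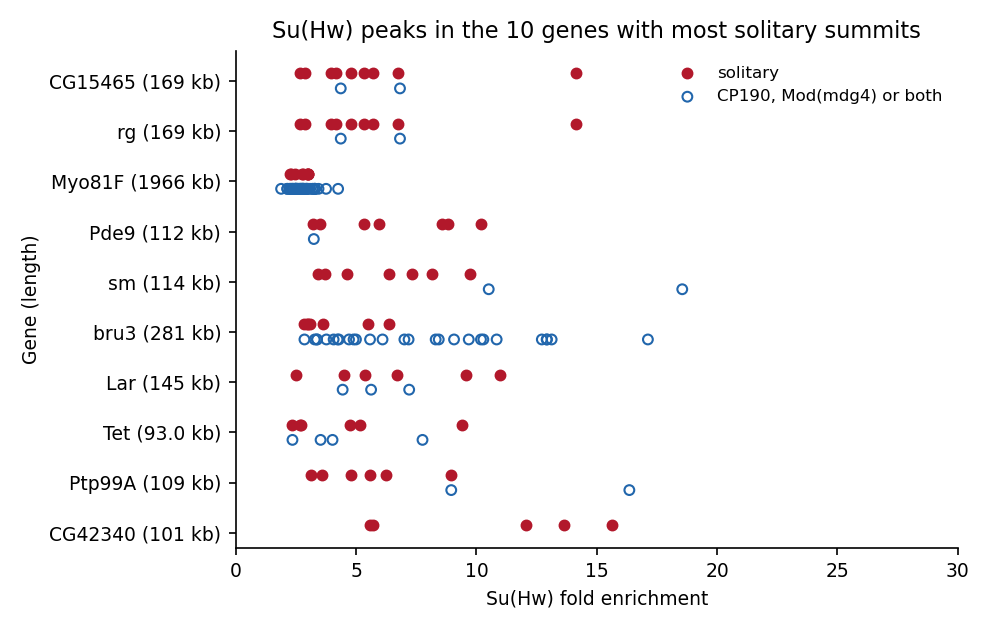
Deposited Su(Hw) fold enrichment of each Su(Hw) summit in the 10 genes with most solitary summits (ties broken by the highest fold), with gene lengths in the labels, solitary sites in red above and partnered peaks in blue below. All 5 summits of CG42340 are solitary, whereas Myo81F and bru3 hold 9 of 57 and 7 of 34.

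Genes of nerve cells held solitary sites often, and held partnered ones as well. Of 36 matched genes of neuronal function, 11 held a solitary summit (30.6%), against 2.78% of all protein-coding genes, and these genes had 1.48 solitary summits per 100 kb of gene against 0.631 for all protein-coding genes. The potassium channel gene Sh held 4 of its 10 Su(Hw) summits as solitary ones, up to 9.31-fold. The sodium channel gene para held 4 of 6, up to 8.01-fold. Nrg, the gene of the adhesion protein Neuroglian, held 1 of 1 at 8.82-fold, and the potassium channel gene Shab held 1 of 2 at 8.07-fold. Yet of all Su(Hw) summits in the neuronal list, 21 of 68 were solitary, or 30.9% (interval 21.2 to 42.6), against 25.4% in all protein-coding genes and 28.7% in those of 100 kb or more. Both of these shares lie within the interval.

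Families of cell-surface recognition proteins of neurons gave shares within a few points of these, except the beat and side genes, whose interval is wide. Among the dpr and DIP genes, 10 of 32 held a solitary summit, and 16 of their 53 summits were solitary (30.2%, interval 19.5 to 43.5). The highest were 9.99-fold in dpr6, 9.79-fold in DIP-gamma, 7.40-fold in DIP-eta and 5.84-fold in dpr3. Among the beat and side genes, whose products pair up in motor axon guidance, 10 of 22 held one, and 13 of 35 summits were solitary (37.1%, interval 23.2 to 53.7). The highest were 11.6-fold in side-III, 10.5-fold in beat-Vb, 10.4-fold in side-II and 9.10-fold in beat-Vc. Among nicotinic acetylcholine receptor subunits 3 of 10 held one, and 7 of 24 summits were solitary (29.2%, interval 14.9 to 49.2), with 12.7-fold in nAChRalpha5, 8.97-fold in nAChRalpha3 and 4.41-fold in nAChRalpha6.

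The germline, insulator protein, hemocyte, Hox, muscle, ecdysone and segmentation lists held 0 to 3 genes with a solitary summit each. Apart from the segmentation list, which held none, these make up from 5.26% of the muscle list to 15.8% of the ecdysone list, against 2.78% of all protein-coding genes. Per 100 kb of gene the order was another, with 0.631 solitary summits in all protein-coding genes. The muscle list had 0.226, the Hox list 0.296, the hemocyte list 0.496 and the insulator list 0.539. The ecdysone list had 0.626, and the germline list alone was higher, with 0.673. Of the Su(Hw) summits in these lists, 2 of 6 were solitary in the germline list, 1 of 6 in the insulator list, 2 of 10 in the hemocyte list, 1 of 4 in the Hox list, 1 of 9 in the muscle list and 5 of 25 in the ecdysone list. All 6 intervals hold the 25.4% of protein-coding genes. Among the Hox genes, Ubx alone of 8 held one, at 13.6-fold (chr3R:16681605-16682225), and it was the sole Su(Hw) summit in that gene. The germline list had 2 of 22: Sxl, the switch gene of sex determination (7.01-fold), and orb, which encodes a translation regulator of the oocyte (3.73-fold). Among genes of insulator proteins shep, whose product binds RNA and tempers gypsy insulators, was the single one of 18 (4.64-fold). The hemocyte list, for the blood cells that Kc167 resembles, had 2 of 26: the transcription factor gene zfh1 (7.78-fold) and the collagen gene vkg (4.15-fold). In the muscle list Mef2, a myogenic factor gene, was the single one of 19 (7.27-fold). In the ecdysone list there were 3 of 19: br (5.83-fold), Eip93F (3.35-fold) and Hr4 (2.19-fold). None of 24 segmentation genes held a Su(Hw) summit of any kind. Solitary summits lay in 20 of 1944 long non-coding RNA genes (1.03%) and 3 of 503 antisense RNA genes (0.596%), against 2.32% of all genes. The highest were 9.22-fold in lncRNA:CR44256 and 7.71-fold in lncRNA:CR44320. Of the Su(Hw) summits in long non-coding RNA genes 21 of 107 were solitary (19.6%, interval 13.2 to 28.1). In antisense RNA genes 3 of 17 were (17.6%, interval 6.19 to 41.0). Both intervals hold the 25.1% of all genes. Among 126 symbols that begin like histone names, HisT was the single one (4.37-fold); it is 25.4 kb long, against a median of 0.529 kb for the list, and may not be a histone gene. None was found inside the genes of 59 odorant, 60 gustatory or 66 ionotropic receptors, 51 odorant-binding proteins, 70 Cpr cuticular proteins, 87 cytochromes P450, 34 tetraspanins, 16 Jonah proteases, 88 ribosomal proteins, 295 transfer RNAs, 32 small nuclear RNAs, 257 small nucleolar RNAs or 260 microRNAs. These genes held hardly any Su(Hw) summit of either kind: 5 in the Cpr genes, 2 in the gustatory receptor genes, 1 each in the P450, tetraspanin and ribosomal protein genes and 0 in the rest. Their lack of solitary summits is thus no feature of solitary sites.

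Most genes of these last families are shorter than the hosts above, so a margin of 2 kb on each side was also counted. Within 2 kb of any gene 18.5% of Su(Hw) summits were solitary, each gene counted on its own. Around cytochrome P450 genes 0 of 16 summits were (interval 0 to 19.4), around small nuclear RNA genes 0 of 14 (interval 0 to 21.5) and around tetraspanin genes 0 of 10 (interval 0 to 27.8). Around transfer RNA genes 1 of 26 was solitary (3.85%, interval 0.682 to 18.9), around Cpr genes 2 of 21 (9.52%, interval 2.65 to 28.9) around microRNA genes 7 of 31 (22.6%, interval 11.4 to 39.8) and around odorant receptor genes 3 of 10 (30%, interval 10.8 to 60.3). All of these intervals hold the share around all genes.

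Solitary sites tended to follow each other along the chromosome. The next Su(Hw) peak after a solitary one was itself solitary in 255 of 817 cases, or 31.2% (interval 28.1 to 34.5), against 561 of 2864, or 19.6% (interval 18.2 to 21.1), after a partnered peak and 22.2% after any peak. The difference was 11.6 points (interval 8.20 to 15.2), and it averaged 12.7 points within strength classes. Both neighbours were solitary at 11.6% of solitary sites and 4.86% of partnered peaks. The likeness was strongest at short range. With the next peak less than 5 kb away it was solitary in 39.3% after solitary sites (55 of 140), against 12% after partnered peaks (88 of 732). At 20 to 50 kb the shares were 27.1% and 23.4%, and beyond 50 kb they were 23.7% and 23.1%. A broad partner peak can cover a pair of Su(Hw) peaks, which makes both partnered: 143 of the pairs under 5 kb shared one. Without them, the share after partnered peaks under 5 kb was 14.9% (88 of 589).

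**Figure D5:**
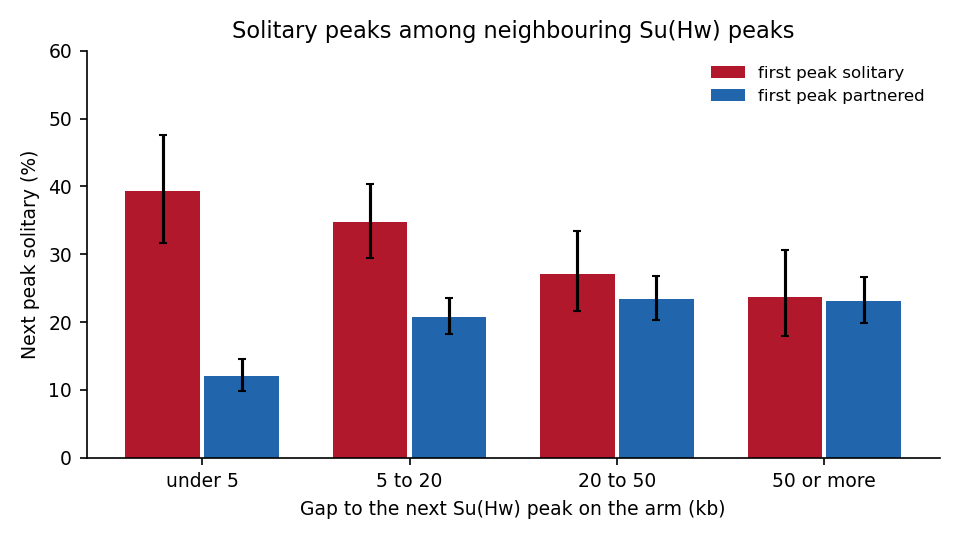
Share of cases, in percent, in which the next Su(Hw) peak along the arm is solitary, by the distance to it, after a solitary first peak and after a partnered first peak, with 95% Wilson intervals. The shares are 39.3% against 12% under 5 kb and 23.7% against 23.1% beyond 50 kb.

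The solitary sites formed 562 unbroken runs in the order of Su(Hw) peaks. Of these 402 were single sites, and 55 runs of 3 or more held 205 sites (25.1%). The longest runs had 7 sites. One filled 95.4 kb of sm (chr2R:19531767-19627171), with folds of 8.16, 3.41, 6.35, 3.73, 9.73, 7.33 and 4.64 and no CP190 or Mod(mdg4) peak between. Another, in rg and CG15465 (chrX:5163492-5225662), had folds of 4.15, 14.1, 2.90, 5.32, 5.71, 3.97 and 2.65 with 1 CP190 peak between. The last of the 3 ran over 104 kb into CG42340 (chrX:6405574-6510073), with folds of 4.73, 5.43, 13.6, 15.6, 12.1, 5.59 and 5.71 and no partner peak between. A run of 6 with the strongest solitary site of all ended in side-II (chr2L:14829602-14941808), with folds of 11.4, 7.92, 3.37, 25.3, 3.78 and 10.4 and 1 CP190 peak between. A run of 6 in Pde9 (chrX:12789855-12863070) had folds of 8.82, 3.19, 10.2, 3.50, 8.57 and 5.97 and no partner peak between. The run of 6 from verm to sNPF-R (chr3L:19691411-20065129) was of another kind. It stretched over 374 kb with 28 CP190 peaks between its sites, none of them on Su(Hw).

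Runs were counted by order and not by distance. The nearest other solitary site was 31.6 kb away at the median. The nearest peak of the same class was 14.6 kb away for the more numerous peaks with CP190 alone and 17.5 kb away for those with both partners. A peak of the same class lay less than 1 kb away at 4.77%, 4.74% and 4.28% of these classes in turn. The nearest Su(Hw) peak of any class was 9.33 kb away at the median for solitary sites. It was 7.11 kb away with CP190 alone and 7.85 kb away with both partners. When sites less than 10 kb apart were joined, 14 groups of 3 or more held 43 solitary sites (5.26%), against 14.7% of peaks with CP190 alone and 14.5% of those with both partners; the classes differ in number, and so in how closely they can lie. The largest group had 4 sites within 17.7 kb of CG7720 (chr3R:18769204-18786912), with folds of 3.79, 5.03, 2.73 and 4.94. Groups of 3 that reached high folds lay near lncRNA:CR45302 (7.92, 3.37 and 25.3 within 3.36 kb), near Set2 and Neto (3.76, 4.67 and 16.4), near CG33669 and CG33668 (15.9, 4.73 and 5.43), in Pde1c (7.88, 2.93 and 11.3 within 2.27 kb) and in sm (3.73, 9.73 and 7.33).

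Solitary sites were spread over the arms much as Su(Hw) peaks in general. Their share of Su(Hw) peaks was 24.2% on 2L (148 of 612), 19.9% on 2R (121 of 609), 20.1% on 3L (144 of 718), 22.8% on 3R (229 of 1003) and 23.6% on X (175 of 740). The intervals of any 2 of these overlapped. On chromosome 4 none of 5 Su(Hw) peaks was solitary, with an interval of 0 to 43.4%. The parts of the arms next to the centromere held 33 solitary sites, 22 of them on 3R, and 4.29% of all Su(Hw) peaks. These were weak, with a median of 3.01-fold. The same regions held 66 of the 68 Su(Hw) peaks with Mod(mdg4) alone.

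CLAMP, the zinc-finger protein whose binding the study set beside that of the insulator proteins, was seldom called at solitary sites. The first antibody had a peak at 24 of them (2.94%), against 9.63% of all Su(Hw) peaks, and the difference from partnered peaks was −8.60 points (interval −10.1 to −6.81). The second antibody had a peak at 12 (1.47%), against 7.27% of all, with a difference of −7.45 points (interval −8.72 to −5.99). Both antibodies met at 8 sites (0.979%, against 5.72% of all). The partnered peaks were not alike in this. The first antibody marked 7.17% of peaks with CP190 alone, 12.2% of those with both partners and 68 of 68 with Mod(mdg4) alone, of which 66 lay next to the centromere. Against peaks with CP190 alone, the difference of the solitary sites was −4.23 points (interval −5.91 to −2.40) with the first antibody and −6.14 points (interval −7.70 to −4.52) with the second. In the weakest strength class, the first antibody marked 6.12% of solitary sites, 14.4% of peaks with CP190 alone and 17.8% with both partners (8 of 45), and 61 of the 113 marked partnered peaks of this class had Mod(mdg4) alone. In the strongest class it marked 0 of 39 solitary sites, 4.81% of peaks with CP190 alone and 15.2% with both partners. Of all CP190 peaks, 26.8% overlapped CLAMP by the first antibody and 24.3% by the second. What part the lack of CP190 has in the differences was not tested.

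Of the 24 sites with the first antibody, 14 lay next to the centromere, 13 of them on 3R, and elsewhere it marked 10 of 784 solitary sites (1.28%). The second antibody marked none in the centromere-proximal parts. In cells given Clamp dsRNA, the second antibody had peaks at 15 solitary sites (1.84%, against 2.90% of all Su(Hw) peaks). The share was 0.448% with CP190 alone and 1.45% with both partners, while 67 of the 68 peaks with Mod(mdg4) alone had one. Of the 15 sites 12 were next to the centromere; among the other 3 were the 17.3-fold site in CadN2 and the 15.4-fold site near CG7094, neither of which had a CLAMP peak in mock cells. The 8 sites with both antibodies lay in or near salr, lncRNA:acal, sli, CG46315, Hr4, ph-d, ctp and mnb. The strongest for Su(Hw) was in ctp, the gene of a dynein light chain (chrX:4690536-4691120, 9.75-fold), with CLAMP at 2.84-fold by the first antibody and 3.26-fold by the second. The strongest for CLAMP lay near ph-d, a Polycomb group gene, with Su(Hw) at 3.09-fold and CLAMP at 17.7- and 18.2-fold, and it kept a peak of 2.63-fold after Clamp dsRNA. In salr, a gene of the Spalt family of transcription factors, Su(Hw) was 3.44-fold and CLAMP 8.08- and 10.3-fold. In sli, which encodes the midline repellent Slit, Su(Hw) was 4.49-fold and CLAMP 2.35- and 3.35-fold. In mnb, the gene of the Minibrain kinase, Su(Hw) was 2.70-fold and CLAMP 2.75- and 2.80-fold. The second antibody alone marked 4 sites: ssp3 (CLAMP 18.5-fold), near stas (6.32-fold), CG31140 (2.73-fold) and near lncRNA:CR43856 (2.29-fold). Folds of different lists are set side by side and are not compared as amounts.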

How the data were processed

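ChIP-seq peaks of Kc167 cells were analysed from the deposited lists, 1 per antibody and treatment. Every row name contains "pooled": a list was called on the libraries of its group combined. The submitters' processing notes name MACS2 2.1.0.20150731, Picard, SAMtools 1.2, Bowtie2 2.2.9, cutadapt 1.8.1 and build dm6; of settings and thresholds nothing is given in the sources used here. For each peak the authors deposited a fold enrichment, which is, as this peak layout defines it, the ratio of the pileup at the summit to the expected background. The deposited score, the −log10 p and the −log10 q of each peak also came from the authors, and −log10 q and fold were used to describe and rank peaks. The depth of the libraries is unknown, so an absent peak means that none passed the authors' threshold.

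Overlap meant at least 1 shared base. The 17684 genes on the 6 arms were read from a RefSeq table of assembly Release 6 plus ISO1 MT. It holds no strand, exons or sequence, so exon classes and the planned motif search were not made. A gene end is either bound of a gene. Centromere-proximal meant beyond 22 Mb on 2L, below 6 Mb on 2R, beyond 23 Mb on 3L, below 4.5 Mb on 3R, beyond 21 Mb on X, and all of chromosome 4. Named sites were the strongest 12, the strongest of each arm, the 10 strongest at gene ends, the extremes of width and of the rule, those with CLAMP, the largest host genes by count, the longest runs and groups, and up to 4 genes a list. Ubx is one of these list genes. Of the symbols in the 27 lists, 15 did not match. The members and lists were chosen with earlier results of these data known, and the classes of distance, length and strength were set on these data.

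Computation used Python 3.11.15, numpy 2.4.6, pandas 2.3.3, scipy 1.17.1 and matplotlib 3.10.9. The overlap and interval code was checked on simulated data. Alternatives were other overlap rules, the 50% best peaks, other gene-end and joining distances, and leaving out centromere-proximal parts.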

Additional observations from a re-analysis of the deposited data

Results flagged for a closer look

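Signal of the same kind lay outside the arms analysed. Of 102 Su(Hw) peaks on the Y, the mitochondrial genome and unplaced sequences, 21 had neither partner, or 20.6% (95% Wilson interval 13.9 to 29.4). They included 5 of 8 peaks on the Y and 0 of 8 on the mitochondrial genome. Their median fold was 3.37 and their highest 10.0.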

How the results depend on the processing

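Over 14 alternative settings, 41 of 41 differences between solitary sites and partnered peaks kept their sign, and 71 of 110 values stayed within their interval or within 1.5 times a count. Differences within strength classes entered this count as averages. For summits inside a gene the sign was reversed in the weakest class (68.8% against 69.6%) and in the strongest (53.8% against 57.1%). With the 50% best Su(Hw) peaks, the solitary sites numbered 186, with a median fold of 9.44 and width of 562 bases; 65.1% lay inside a gene, and that difference fell to 4.21 points with an interval that spans 0 (−3.25 to 11.1). There 0.538% carried a peak of the first CLAMP antibody and 0.538% of the second, the next peak was solitary in 16.7% (difference 7.32 points), 0 groups of 3 formed and 26.9% lay on X. With the 50% best partner peaks they numbered 2015 (fold 5.33, width 436 bases), the gene-end difference was −19.5 points, CLAMP shares were 6.10% and 3.72%, the next peak was solitary in 64.3% (difference 21.3 points), and 114 groups formed. With partners judged by summits within 250 bases, 10.6% lay at a gene end (difference −10.2 points), CLAMP shares were 7.26% (difference −3.25) and 3.78% (difference −4.79), and 24 groups formed. With a gene end taken as 200 bases the share was 2.94% (difference −8.49), with 1000 bases 14.6% (difference −17.0), and with protein-coding genes alone 5.02%. With CLAMP judged by summits within 250 bases, the CLAMP differences were −5.98 and −4.35 points; within the 5 strength classes, chosen after seeing the data, they were −12.8 and −9.20, with 61 of the 113 marked partnered peaks of the weakest class having Mod(mdg4) alone. Without centromere-proximal parts the first CLAMP share was 1.28%. Joining within 5 kb gave 4 groups and within 20 kb 35. For these changes the cause was not tested, apart from what each setting itself removes or adds. No paired analysis was possible because each list pools its libraries. The motif alternative was not run. Depth is unknown, so weak CP190 or Mod(mdg4) binding at solitary sites cannot be told apart from none.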
